A study of Mus musculus with 84 samples.

Results

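Promoters that carried both the activating mark H3K4me3 and the repressive mark H3K27me3 in adipocytes of control mice were followed through obesity and weight loss. A promoter was taken as all bases within 2000 bp of a transcription start site (TSS) of a protein-coding gene, with 1 value per gene. Members were selected on the control libraries: an H3K4me3 peak in 8 or more of 10 H3K4me3 libraries and an H3K27me3 peak in 8 or more of 10 H3K27me3 libraries. This left 443 of 21851 promoters (2.03%), referred to as bivalent. By the same libraries 10750 promoters carried H3K4me3 and not H3K27me3 (8 or more and 2 or fewer libraries, H3K4me3-only), 1426 carried H3K27me3 and not H3K4me3 (Polycomb-only) and 5747 carried neither.

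The mice were male AdipoERCre x NuTRAP animals, in which tamoxifen given before the diet switched on a Cre recombinase driven by adiponectin sequence and so labelled adipocyte nuclei with biotin in all 8 groups. Nuclei pulled down from frozen epididymal fat were profiled by CUT&Tag, which cuts and tags DNA where an antibody has bound a histone mark. Mice of group H were on high-fat diet for 12 weeks and those of HH for 25 weeks, HC and HHC mice returned to chow for 8 weeks after the same exposure, and C, CC_s, CC_l and CCC were their age-matched controls without high-fat diet. Each pair was of one age: 18 weeks for C and H, 26 for CC_s and HC, 31 for CC_l and HH and 39 for CCC and HHC. Each group had 2 or 3 libraries of each mark, 84 in all (21 of H3K4me3, 20 of H3K27me3, 21 of H3K27ac, 22 of H3K4me1), and libraries of 1 group with the same replicate number came from 1 animal. Overlap of 1 bp or more between a deposited peak and the window made the promoter marked in that library. H, HC, HH and HHC are called diet groups below.

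Bivalent promoters were first described in embryonic stem cells, where they mark developmental regulators that are silent and can later be switched on. H3K4me3 is laid down by Trithorax-group complexes at unmethylated CpG-rich start sites, H3K27me3 by the Polycomb repressive complex PRC2, and H3K27ac, set on the same lysine that PRC2 methylates, accompanies active promoters and enhancers. A nucleosome tail cannot be acetylated and trimethylated at lysine 27 at once. In pooled nuclei, both marks on 1 allele and a mixture of nuclei with 1 mark each cannot be told apart, and fewer nuclei of a type and less signal per nucleus cannot be told apart either.

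The promoters printed here are members on which the results turn, each 250 bases before to 50 bases after the TSS used, on the gene's strand, 5′ to 3′, from the GRCm38 genome. Capitals mark CG dinucleotides, the sites where CpG methylation can occur. Fmn1 lies at chr2:113327486-113327785 (plus strand, 21 CG) and carried more H3K27ac in diet libraries. Prdm1 at chr10:44458699-44458998 (minus strand, 20 CG) and Myo1e at chr9:70207118-70207417 (plus strand, 16 CG) had fewer H3K27me3 peaks. Atoh1 at chr6:64728875-64729174 (plus strand, 20 CG) had fewer H3K27ac peaks, and Lrrtm1 at chr6:77242447-77242746 (plus strand, 19 CG) fewer H3K4me3 and H3K27ac peaks. Adipoq at chr16:23146286-23146585 (plus strand, 0 CG), the gene of the adipocyte hormone adiponectin, is shown as the member of the adipocyte gene list.
Fmn1: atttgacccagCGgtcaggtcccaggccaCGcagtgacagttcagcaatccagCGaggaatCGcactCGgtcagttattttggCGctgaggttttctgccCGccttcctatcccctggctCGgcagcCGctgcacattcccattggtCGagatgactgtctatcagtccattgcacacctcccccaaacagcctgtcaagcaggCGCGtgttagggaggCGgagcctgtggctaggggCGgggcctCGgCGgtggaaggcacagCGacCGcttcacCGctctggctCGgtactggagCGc
Prdm1: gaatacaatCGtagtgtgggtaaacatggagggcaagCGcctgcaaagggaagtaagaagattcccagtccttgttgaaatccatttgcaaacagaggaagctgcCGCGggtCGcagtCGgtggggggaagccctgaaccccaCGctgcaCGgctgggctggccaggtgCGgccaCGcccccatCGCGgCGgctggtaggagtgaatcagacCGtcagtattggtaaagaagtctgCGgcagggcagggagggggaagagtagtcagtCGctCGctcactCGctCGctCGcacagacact
Myo1e: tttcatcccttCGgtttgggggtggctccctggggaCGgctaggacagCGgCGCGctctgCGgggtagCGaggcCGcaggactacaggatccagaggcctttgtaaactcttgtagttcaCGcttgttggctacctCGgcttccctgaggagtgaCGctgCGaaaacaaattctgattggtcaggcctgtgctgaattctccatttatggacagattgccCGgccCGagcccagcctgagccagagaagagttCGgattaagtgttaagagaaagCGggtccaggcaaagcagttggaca
Atoh1: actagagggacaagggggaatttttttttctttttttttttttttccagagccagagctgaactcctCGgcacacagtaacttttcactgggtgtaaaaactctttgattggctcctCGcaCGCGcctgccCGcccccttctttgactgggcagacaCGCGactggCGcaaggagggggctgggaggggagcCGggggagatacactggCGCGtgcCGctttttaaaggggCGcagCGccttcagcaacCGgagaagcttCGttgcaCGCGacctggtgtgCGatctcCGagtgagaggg
Lrrtm1: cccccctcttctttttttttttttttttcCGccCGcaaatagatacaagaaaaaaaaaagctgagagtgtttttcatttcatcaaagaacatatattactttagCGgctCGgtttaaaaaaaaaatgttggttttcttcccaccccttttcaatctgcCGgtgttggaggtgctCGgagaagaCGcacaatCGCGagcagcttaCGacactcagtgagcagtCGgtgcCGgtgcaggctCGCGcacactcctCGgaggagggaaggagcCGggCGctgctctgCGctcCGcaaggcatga
Adipoq: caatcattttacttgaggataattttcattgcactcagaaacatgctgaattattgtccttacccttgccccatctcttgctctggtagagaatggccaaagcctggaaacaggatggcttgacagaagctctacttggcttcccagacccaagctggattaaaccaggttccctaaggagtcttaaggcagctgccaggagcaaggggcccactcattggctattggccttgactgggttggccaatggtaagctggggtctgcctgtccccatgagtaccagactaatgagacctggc

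The CpG content of the bivalent promoters lay near that of the H3K4me3-only set and above that of the Polycomb-only set. In the 1000 bp around the TSS, the ratio of observed to expected CpG had a median of 0.704 in bivalent, 0.750 in H3K4me3-only, 0.481 in Polycomb-only and 0.582 in all promoters, and it was at least 0.6 in 72.2%, 78.02%, 33.03% and 48.4% of them. The median GC content of the members was 60.6%, against 55.4% over all promoters. In the 300 bases from 250 before to 50 after the TSS, members held a median of 20 CG dinucleotides, against 13 in all promoters. The GC box (GGGCGG, either strand) was found in 60.5% of members and 45.5% of all promoters, TATAAA in 7.67% and 12.5%, and CCAAT in 35.4% and 38.7%. These matches are letters in a window and not sites shown to be used. Among the promoters printed above, Adipoq departs from the set, with no CG at all and 3 CCAAT matches, and none of those printed holds TATAAA on either strand.

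The choice of members rested on 2 libraries. H3K4me3 libraries CC_s replicate 1 and CC_s replicate 2 held a peak at 41.8% and 54.2% of the members, whereas the other control H3K4me3 libraries held one at 99.1% to 100% and the control H3K27me3 libraries at 88.3% to 98.9%. Of the members, 107 carried both marks in 10 of 10 libraries each, and 365 (82.4%) met the rule at a single TSS. Just inside the threshold, 31 members had 8 of 10 libraries for each mark (Colgalt2, Rgs16 and Ralgps2 first in genomic order), and just outside, 254 promoters missed it at 7 libraries for 1 mark or both (Tcf24 and Kcnq5 with 7 of 10 for H3K4me3, Aff3 with 7 of 10 for H3K27me3). Without both CC_s libraries, an alternative chosen after seeing the data, 634 promoters met the rule. The count was 259 to 263 without any 1 of the other 8 control H3K4me3 libraries (C replicate 1, 2 or 3, CC_s replicate 3, CC_l replicate 1 or 2, CCC replicate 1 or 3). With 1 library left out, 8 were still required for that mark, a stricter rule than 8 of 10, so nothing is read from the lower count. The title and the treatment field name different groups for 4 H3K4me3 libraries, which are replicate 2 of CC_l, replicates 2 and 3 of HH and replicate 3 of CCC. Titles were used, and by the treatment field 441 promoters met the rule. Neighbouring genes can share a window: the members formed 419 loci, and 80 of them overlapped the window of another protein-coding gene.

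A group of 24 members stood apart, since each had a peak in at least 80 of the 84 libraries whatever the antibody. No other promoter of the 21851 did so. Of these, 11 had a peak in all 84 libraries: Iqsec1 and 10 predicted genes, among them Gm10800, Gm10801, Gm10717 and Gm21738. Their tallest peak lay at a median of the 99.8th percentile of peak heights within a library, against 68.0 for the other members. Sp110, Sp140, Hjurp, Sox6, Litaf and Sfi1 were in this group as well. The study states that blacklisted regions were filtered out, and these peaks are present in the deposited lists. Values without these 24 are given beside the shares of promoters with H3K27me3, H3K4me3 and H3K27ac and beside the H3K27ac calls, and the other results were not run without them.

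Across the window, control H3K4me3 cover at the members peaked at the TSS, where 67.7% of members were covered by a peak on average over libraries, against 92.9% of H3K4me3-only promoters. Control H3K27me3 cover had a dip at the start site: it was 50.9% at 50 bp downstream and 57.9% at its highest, 1250 bp downstream. Polycomb-only promoters reached 70.2%, 850 bp downstream. Where an animal had both marks at the TSS used, the H3K4me3 and H3K27me3 peaks overlapped in 72.1% to 90.8% of such members in animals of the 12-week cohort and in 93.4% to 98.25% in the 25-week cohort.

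**Figure D1:**
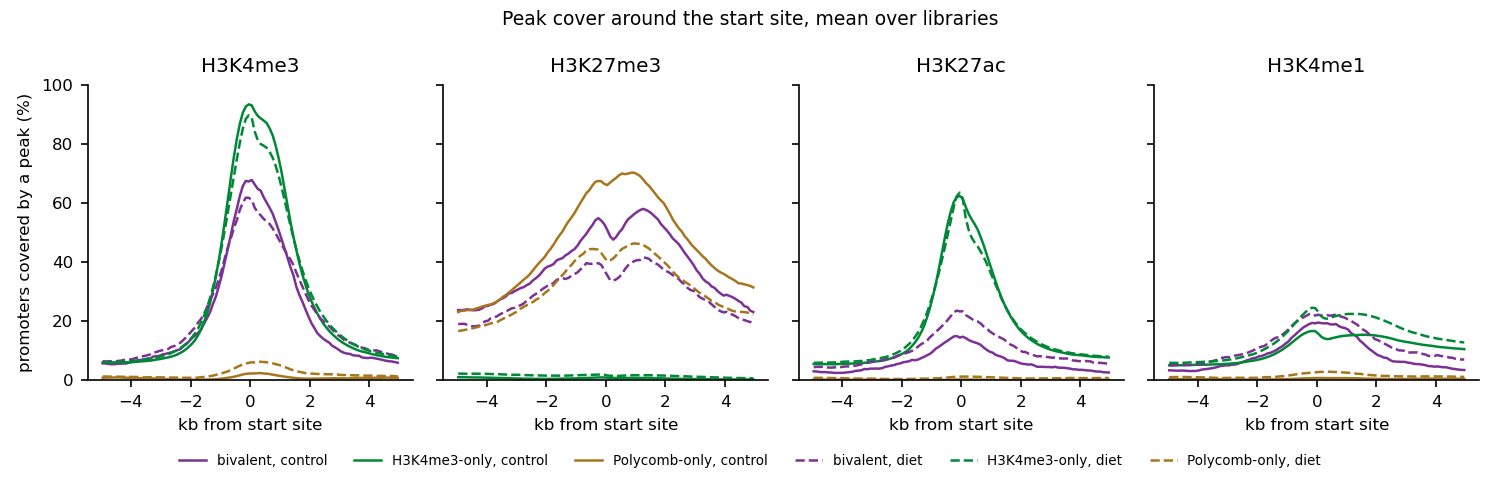
Percentage of promoters covered by a peak (vertical axis) by distance from the TSS in kb (horizontal axis) for 4 marks, as means over control libraries (solid lines) and diet libraries (dashed lines). In control libraries bivalent promoters reach 67.7% for H3K4me3 and 57.9% for H3K27me3, with a dip in H3K27me3 at the TSS. In diet libraries the highest H3K27me3 cover of bivalent promoters is 41.6%.

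H3K27ac and H3K4me1 took no part in the rule. Most members lacked H3K27ac in most control libraries: 173 (39.1%) had a peak in none of 9, 48 (10.8%) in all 9, and the median was 1 of 9, against 8 of 9 at H3K4me3-only promoters and 0 at Polycomb-only promoters. No H3K27ac peak was seen in any of 21 libraries at 71 members. Of the 48 with H3K27ac in every control library, 21 were among the 24 members marked whatever the antibody. The remaining 27 included Adipoq, Leprot, Egf, Eif4a2, Col18a1, Fgf20, Atoh1, Chn1 and Lrrtm1. H3K4me1 was present in a median of 3 of 10 control libraries at members, against 2 of 10 at H3K4me3-only promoters.

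The genes behind the promoters included many regulators of development, as counted over 20 gene lists. The zinc finger list, which holds the GATA, ZIC, GLI, SALL, Egr, Osr and Prdm genes, had 9 members among 44 genes (20.5%, including Egr2, Egr3, Gata3 and Glis3), to be read beside the 2.03% of all promoters. Members made up 6 of 39 HOX genes, which set position along the body axis (Hoxb6, Hoxb7, Hoxb8, Hoxd3), 9 of 108 other homeobox factors (Irx3, Irx5, Mkx, Onecut2), 4 of 44 forkhead factors (Foxa3, Foxd2, Foxp2, Foxq1), 2 of 19 SOX factors (Sox6, Sox9), 1 of 16 T-box factors (Tbx18) and 4 of 55 basic helix-loop-helix factors (among them Atoh1, Hey2 and Olig1). Polycomb-only promoters were more frequent in several of these lists, with 48 of the other homeobox factors, 12 HOX genes and 16 basic helix-loop-helix factors.

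Among signalling genes, members were 11 of 69 genes of axon guidance and cell repulsion (Efna1, Epha2, Epha4, Epha7), 4 of 27 fibroblast growth factors (Fgf13, Fgf14, Fgf20, Fgf9), 5 of 53 genes of the Wnt pathway (Fzd2, Ror1, Sfrp1, Wif1), 2 of 51 of the BMP and TGF-beta ligands and antagonists (Inhba, Tgfb2), 1 of 14 Notch ligands and receptors (Dll4) and 0 of 10 genes of the hedgehog pathway. Surface and structural lists held 5 of 37 cadherins and protocadherins (Cdh4, Pcdh1, Pcdh10, Pcdh17), 2 of 44 voltage-gated potassium channels (Kcna3 among them) and 4 of 104 collagen and matrix genes (Adamts17, Adamts20, Col18a1, Mmp17). The other lists gave 5 of 47 nuclear receptors (Esrrb, Esrrg, Nr2f1, Nr4a2), 3 of 15 cell cycle genes (Ccnd1, Cdkn2a, Trp73), 2 of 68 chemokines and leukocyte adhesion genes (Cxcl12, Icam5) and 1 of 36 adipocyte genes (Adipoq). In all, 80 members (18.1%) belonged to at least 1 list.

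The median H3K27me3 difference between diet and control libraries, in points of libraries with a peak, was -11.7 over the zinc finger members, 0 over the other homeobox and -5.83 over the HOX members, beside -10 over all members and 0 over all promoters. It was -10 over the Polycomb-only promoters as well. The rule fixed the control level of members in this mark, so nothing is read from the contrast with all promoters. At an unadjusted p under 0.05 in the test described below, and with 54 of the 80 members in any list tested, H3K27ac was higher in diet at 11 (20.4%, beside 6.65% of all promoters tested) and lower at 5 (9.26%, beside 3.04%). It was higher at 3 of 9 zinc finger members tested and at 2 of 6 each of the other homeobox and axon guidance members. Of the 5 HOX, 3 Wnt pathway and 3 basic helix-loop-helix members tested, 0 were higher. None of these differences passed an adjusted p of 0.05, and the limit of the filter given below for all members holds here too. Gata3, which directs T cell and trophoblast fates, and the homeobox genes Irx3 and Irx5 had an H3K27me3 peak in 20 of 20 libraries each. H3K27ac at Irx5 was absent from 3 of 3 C and 2 of 2 CC_s and CCC libraries but present in 2 of 2 CC_l libraries, and among diet libraries it was in 2 of 3 H libraries, 1 of 3 HC libraries and every HH and HHC library. Control and diet groups therefore overlapped at CC_l. Cdkn2a, whose products arrest the cell cycle, carried H3K4me3 in 21 of 21 libraries and H3K27ac in 2 of 21, 1 each from HH and HHC. Adipoq was marked by H3K27me3 in 19 of 20 libraries, by H3K27ac in 20 of 21 and by H3K4me3 in 20 of 21. The Cre transgene of these mice is driven by adiponectin sequence, and the part of its copies in the Adipoq peaks was not tested.

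The study asked whether chromatin of adipocytes keeps a trace of obesity, and H, HC, HH and HHC were therefore each set against the age-matched controls. Because the rule used the control H3K4me3 and H3K27me3 libraries, members were chosen anew for each comparison on the other 3 control groups (at least 0.8 of their libraries for each mark), so that neither group compared took part. This gave 271 promoters for H against C, 757 for HC against CC_s, 224 for HH against CC_l and 228 for HHC against CCC. The values are descriptions with no test. Promoters chosen with CC_s held out are more numerous because the libraries that limited the choice were those of CC_s.

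The share of bivalent promoters with an H3K27me3 peak was lower in the diet libraries than in the controls in all 4 comparisons, with no overlap between libraries. In the 12-week cohort it was 76.4% and 77.1% in the 2 H libraries and 82.3%, 89.3% and 88.9% in the 3 C libraries, a difference of -10.1 points between means of 76.8% ± 0.522 (SD, n = 2) and 86.8% ± 3.95 (SD, n = 3). After return to chow, the HC libraries held 81.0%, 58.1% and 77.4% and the CC_s libraries 89.4%, 91.8% and 92.6%, a difference of -19.1 points. The promoters of these comparisons are not the same, and the H and HC differences were not compared. HC replicate 2 was the lowest library of all, and without it the difference from CC_s was -12.1 points.

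In the 25-week cohort, HH held 97.3% and 96.9% against 98.2% and 97.8% in CC_l, a difference of -0.893 points that amounts to 2 of 224 promoters. This small difference was -1.70 points with promoters chosen without C replicate 2, -1.47 without C replicate 3, -1.74 without CCC replicate 1, -0.522 without CC_s replicate 1 and -0.396 without CC_s replicate 2. HHC held 91.7%, 90.8% and 78.9% against 96.1% and 96.5% in CCC, a difference of -9.14 points, with HHC replicate 3 below the other HHC libraries. Without HHC replicate 3 it was -5.04 points. The same shares over all promoters differed by 0.045, -1.59, 0.474 and 3.41 points in the order H, HC, HH and HHC, and at Polycomb-only promoters by -27.2, -25.2, -4.39 and -7.52 points. H3K4me3-only promoters, chosen for few H3K27me3 peaks in controls, could hardly be lower. There the share was higher in diet by 3.19, 2.05, 0.819 and 4.00 points in the same order, with overlapping libraries in HH and HHC. A lower share was thus seen at Polycomb-only promoters as well. It was lower by more points than at bivalent promoters in H, HC and HH, without overlap between libraries (96.2% and 92.3% in HH against 98.9% and 98.4% in CC_l), and by fewer in HHC, where libraries overlapped. Without the 24 members marked whatever the antibody the 4 bivalent differences were -11.3, -19.6, -1 and -10.0 points.

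The extent of H3K27me3 peaks moved with this difference in the 12-week cohort. H3K27me3 peaks covered 16.9 to 19.97 Mb of the genome per H library and 8.54 to 36.3 Mb per HC library, against 43.03 to 64.1 Mb in C and 43.2 to 60.5 Mb in CC_s, and the median width of the H3K27me3 peaks at members was 444 to 1309 bp in diet libraries and 1690 to 2383 bp in controls. In the 25-week cohort HHC libraries covered more than CCC libraries (78.0 to 82.9 Mb against 61.4 to 70.4 Mb), and HH libraries covered 50.1 to 100.96 Mb against 69.3 to 109.6 Mb in CC_l. The part of peak width and depth in these differences was not tested.

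With all peaks used, H3K4me3 at the bivalent promoters differed by more points in the 12-week cohort, where libraries were uneven. The H libraries held 90.04%, 90.4% and 52.4% and the C libraries 99.6%, 100% and 99.3%, a difference of -22.0 points. H replicate 3, the low library, had 11249 peaks, the fewest of any H3K4me3 library, and without it the difference was -9.41 points. With promoters chosen without CC_s replicate 1 or 2 it was -34.5 or -34.4 points. HC held 60.2%, 47.4% and 84.7% against 25.5%, 32.2% and 64.3% in CC_s, a difference of 23.4 points with overlapping libraries, which became -0.22 points without CC_s replicates 1 and 2, 35.2 points without CC_s replicate 3 and 13.1 points without HC replicate 3. HH and CC_l were both at 100% in every library, and HHC was at 96.9%, 100% and 98.7% against 100% and 99.6% in CCC (-1.24 points). The last difference was -2.39 or -2.49 points without CC_s replicate 1 or 2, -0.439 without HHC replicate 1 and -1.97 without HHC replicate 2. With an equal number of peaks per library HH was at -7.07 and HHC at -8.64 points. The size of the difference in the 25-week cohort therefore depended on the setting. Over all promoters H3K4me3 differed by -8.01, 4.33, 0.714 and 1.83 points in the order H, HC, HH and HHC, and at H3K4me3-only promoters by -5.76, 3.25, 0 and -0.205 points. Without the 24 members marked whatever the antibody the bivalent differences were -24.2, 24.2, 0 and -1.39 points.

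H3K27ac at the bivalent promoters overlapped between diet and control libraries in all 4 comparisons. The H libraries held 50.6%, 35.8% and 21.03% against 37.6% to 39.5% in C (-2.83 points), and HC held 11.4%, 14.7% and 42.7% against 10.3% and 16.1% in CC_s (9.69 points). HH held 77.7%, 71.4% and 56.7% against 67.4% and 57.1% in CC_l (6.32 points). HHC held 69.7%, 71.9% and 76.3% against 70.2% and 21.9% in CCC, and the difference of 26.6 points rested on CCC replicate 3: it was 2.49 points without it and 50.7 points without CCC replicate 1. The other differences rested on single libraries too. That of H was 4.55 points without H replicate 3, -10.2 without H replicate 1, and -0.388 or -0.589 with promoters chosen without CC_s replicate 1 or 2. That of HC was -0.198 points without HC replicate 3 and 15.5 without HC replicate 1. That of HH was 1.79 points without HH replicate 1, 12.3 without HH replicate 3, 11.5 without CC_l replicate 1, 1.19 without CC_l replicate 2, and 9.66 or 9.54 without CC_s replicate 1 or 2. Over all promoters H3K27ac differed by -7.39, 0.974, -0.448 and 18.7 points in the order H, HC, HH and HHC, and at H3K4me3-only promoters by -15.1, 0.184, -2.68 and 28.5 points. CCC replicate 3 was low at these as well, with 17.7% of all promoters against 50.8% in CCC replicate 1 and 34.7% of H3K4me3-only promoters against 94.003%. Without the 24 members marked whatever the antibody the 4 differences were -2.16, 10.0, 7.08 and 29.003 points.

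**Figure D2:**
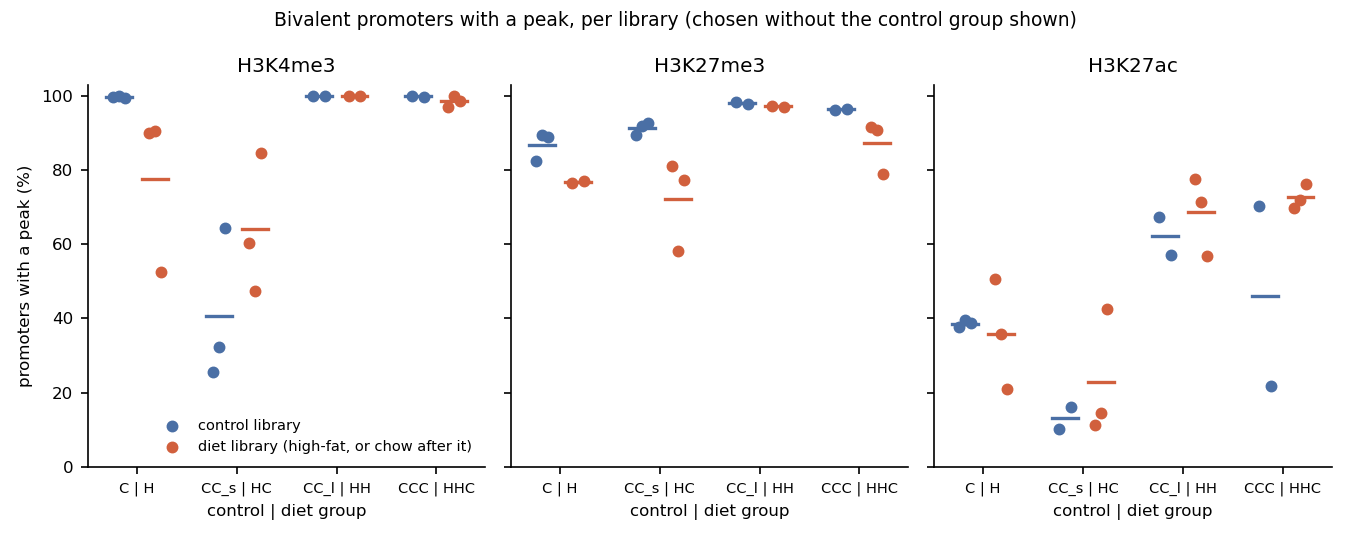
Percentage of bivalent promoters with a peak (vertical axis) in each library (points) and the group mean (bars) for 4 pairs of control and diet groups (horizontal axis), with promoters chosen on the other 3 control groups. For H3K27me3 every diet library lies below every library of its control group, by 19.1 points on average for HC and by 0.893 points for HH, whereas diet and control libraries overlap for H3K27ac in all 4 pairs.

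The state of the 443 members in each animal was read from its own H3K4me3 and H3K27me3 libraries. Both marks were present at 88.04% to 93.5% of members in the C animals, at 95.9% to 98.9% in CC_l and CCC, and at 39.3%, 51.7% and 95.5% in CC_s replicates 1, 2 and 3. These control values follow from the rule and are given as the base. Of the H animals, 2 had both libraries: 59.4% and 61.9% of members carried both marks, 19.2% and 20.3% H3K4me3 alone, 16.03% and 14.9% H3K27me3 alone and 5.42% and 2.93% neither. HC animals carried both marks at 63.9%, 38.8% and 71.3% of members and H3K4me3 alone at 18.3%, 27.3% and 20.3%.

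In the 25-week cohort, HH animals had both marks at 96.2% and 95.5% of members. HHC animals had both marks at 86.5%, 88.5% and 76.1% of members and H3K4me3 alone at 8.13%, 11.5% and 20.99%. The CCC animals had H3K4me3 alone at 4.06% and 3.16%, low values that follow from the rule, so nothing is read from the contrast. In HHC animals, H3K27ac was present at 86.1%, 66.7% and 77.4% of the members with H3K4me3 alone and at 53.8%, 53.3% and 64.1% of those with both marks. These shares are read beside the other groups, since the order was not the same in every animal. Members with H3K4me3 alone were acetylated at 45.9% and 32.2% in H and at 13.6%, 31.4% and 70% in HC, and members with both marks at 44.1% and 26.3% in H and at 25.1%, 34.3% and 55.1% in HC. In HH replicates 2 and 3 the shares were 85.7% and 26.3% with H3K4me3 alone (14 and 19 members) against 50% and 35.9% with both marks. Control animals showed either order, with 19.2%, 26.7% and 29.6% against 22.8%, 23.7% and 23.4% in C, 54.5% and 63.6% (11 members each) against 36.2% and 41.5% in CC_s, and 44.4% and 0% (18 and 14 members) against 49.6% and 12.4% in CCC.

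**Figure D3:**
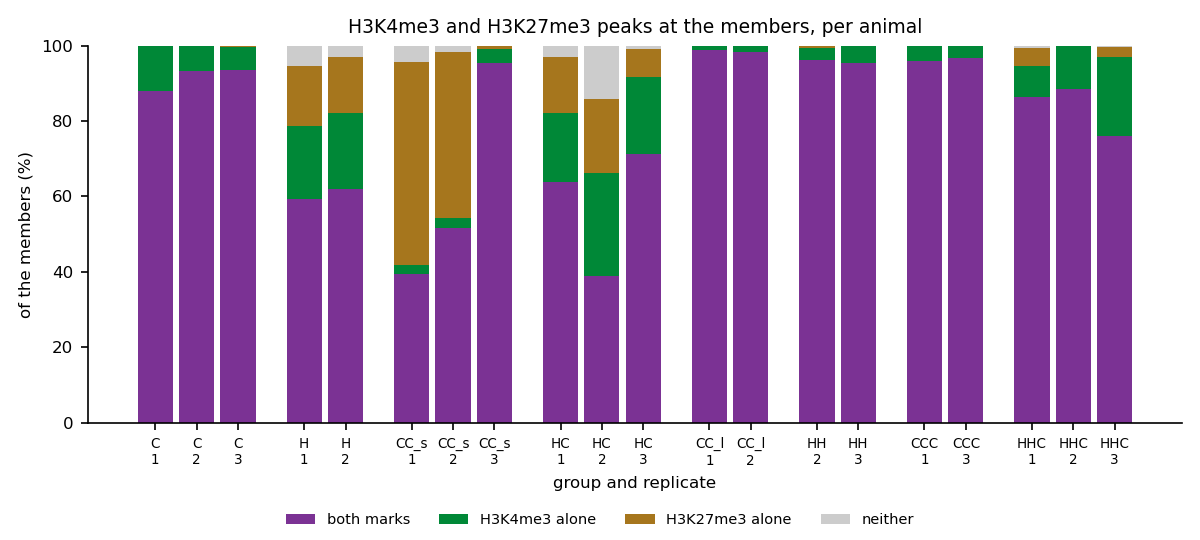
Percentage of the 443 members (vertical axis) with both marks, H3K4me3 alone, H3K27me3 alone or neither in each animal (bars, by group and replicate number). Control animals other than CC_s replicates 1 and 2 carry both marks at 88.04% or more of members, as the rule requires, H animals at 59.4% and 61.9%, and HHC animals at 76.1% to 88.5%.

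Single promoters were compared between all diet and all control libraries of a mark by an exact permutation test of the share of libraries with a peak, with labels permuted within cohort and Benjamini-Hochberg adjustment over all promoters tested. The difference is the diet share minus the control share of libraries, averaged over the cohorts, in points. No promoter of the genome passed an adjusted p of 0.05. This was 0% of 4211 tested in H3K4me3 (lowest adjusted p = 0.211), 0% of 5021 in H3K27me3 (0.0671), 0% of 8169 in H3K27ac (0.217) and 0% of 10285 in H3K4me1 (0.154), and Fisher's exact test without the cohorts passed none either. With an equal number of peaks per library, 55 of 3338 promoters tested passed in H3K4me3, with Ank2 and Cadm2 among 33 members tested. In H3K27me3, 11 of 4020 passed, with Gpsm2 among 47 members tested. With only the upper peaks by total signal, 22 of 3823 passed in H3K27me3, with Gpsm2 and Tgif1 among 40 members tested. The rule fixed the control level of members in both marks, so nothing is read from the members that passed. At an unadjusted p under 0.05, 457 promoters differed in H3K4me3, 955 in H3K27me3, 791 in H3K27ac and 1221 in H3K4me1. No member is therefore called, and what follows are the values of members at the unadjusted threshold.

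For H3K27ac, 256 of the 443 members had a peak in at least 3 and no peak in at least 3 libraries and were tested. Of these, 52 (20.3%) were higher in diet libraries at an unadjusted p under 0.05, beside 6.65% of all promoters tested, and 10 (3.91%) were lower, beside 3.04%. A member that is marked in few control libraries can hardly be lower, and 173 members had no H3K27ac in any control library. Those of the 173 that were tested passed the filter only through diet libraries with a peak. H3K4me3-only promoters, marked in a median of 8 of 9 control libraries, could hardly be higher. With no filter, 52 of the 443 members were higher (11.7%, beside 2.49% of all promoters). Nothing is read from the excess over all promoters. When each library was cut to an equal number of peaks, 7 of 63 tested members of the smaller set so defined were higher (11.1%, beside 9.39% of all promoters). Fisher's exact test without the cohorts gave 38 higher (14.8%, beside 5.68%) and 7 lower. The 12-week cohort alone gave 4 higher members of 86 tested (4.65%, beside 0.445% of all promoters) and the 25-week cohort alone 18 of 158 (11.4%, beside 6.87%), both chosen after seeing the data. The count of 52 was 29 to 34 without CCC replicate 3 (29), C replicate 1 (31), C replicate 2 (31), C replicate 3 (32), CC_s replicate 1 (32), CC_s replicate 2 (31), CC_l replicate 2 (33) or HC replicate 3 (34). These counts were 11.5% to 13.99% of members tested, beside 4.31% to 5.04% of all promoters tested. The 52 and the 10 did not change without the 24 members marked whatever the antibody.

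Pcdh1, a protocadherin of cell adhesion, had the largest H3K27ac difference among the members. Its peak was in 0 of 9 control libraries, in every HC, HH and HHC library and in 2 of 3 H libraries (91.7 points, exact permutation p = 6.18e-05, adjusted p = 0.217). No diet group overlapped its control group there except through 1 H library without a peak, and H3K27me3 was present at Pcdh1 in 20 of 20 libraries. Fmn1, a formin that nucleates actin filaments, had the peak in 0 of 9 control libraries, in 2 of 3 libraries of H and of HC and in every HH and HHC library (83.3 points, exact permutation p = 0.000216, adjusted p = 0.217). At Prkch, a protein kinase C, H3K27ac was absent from 9 of 9 control libraries, present in 1 of 3 libraries of H and of HC and in every HH and HHC library (66.7 points, exact permutation p = 0.0013, adjusted p = 0.217). Pcdh1, Fmn1 and Prkch were the 3 members that gained H3K27ac, from none of the control to all of the diet libraries, in both HH and HHC. With no peak in any control library, these 3 passed the filter only through diet libraries and could not be lower. They were also named for their large differences, so nothing is read from their p-values.

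Further members with large H3K27ac differences were Fam43a (70.8 points), the homeobox factor Hlx (66.7), the Rac activator Prex1 (66.7), the class I myosin Myo1e (66.7), Oasl1 of the interferon response (65), the junction protein Plekha7 (62.5), Fli1 (62.5), an ETS factor of blood and endothelial cells, Msh5 of meiotic recombination (62.5) and the polysialyltransferase St8sia4 (58.3). Unadjusted exact permutation p-values of these 9 lay between 0.00152 and 0.00794 and adjusted ones between 0.217 and 0.381. All 3 HHC libraries had the peak at each of them. Hlx and Prex1 had no H3K27ac in any control library and could not be lower. All 9 were named for large differences, so nothing is read from their p-values.

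Lower H3K27ac was largest at Atoh1, a proneural basic helix-loop-helix factor. It had H3K27ac in 9 of 9 control libraries, in no H or HC library, in 2 of 3 HH libraries and in 1 of 3 HHC libraries (-75 points, exact permutation p = 0.000794, adjusted p = 0.217). Both pairs of the 12-week cohort were without overlap. Marked in every control library and named for its large difference, Atoh1 could not be higher, so nothing is read from its p-value. Nr2f1, an orphan nuclear receptor, differed by -60.8 points, Chn1, a Rac-inactivating protein of neurons, and Lrrtm1, a synaptic adhesion protein, by -50 points each, and Sox9, Runx1t1 and Fgf14 by -45 points each. H3K27me3 was present at Atoh1 in 19 of 20 libraries.

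**Figure D4:**
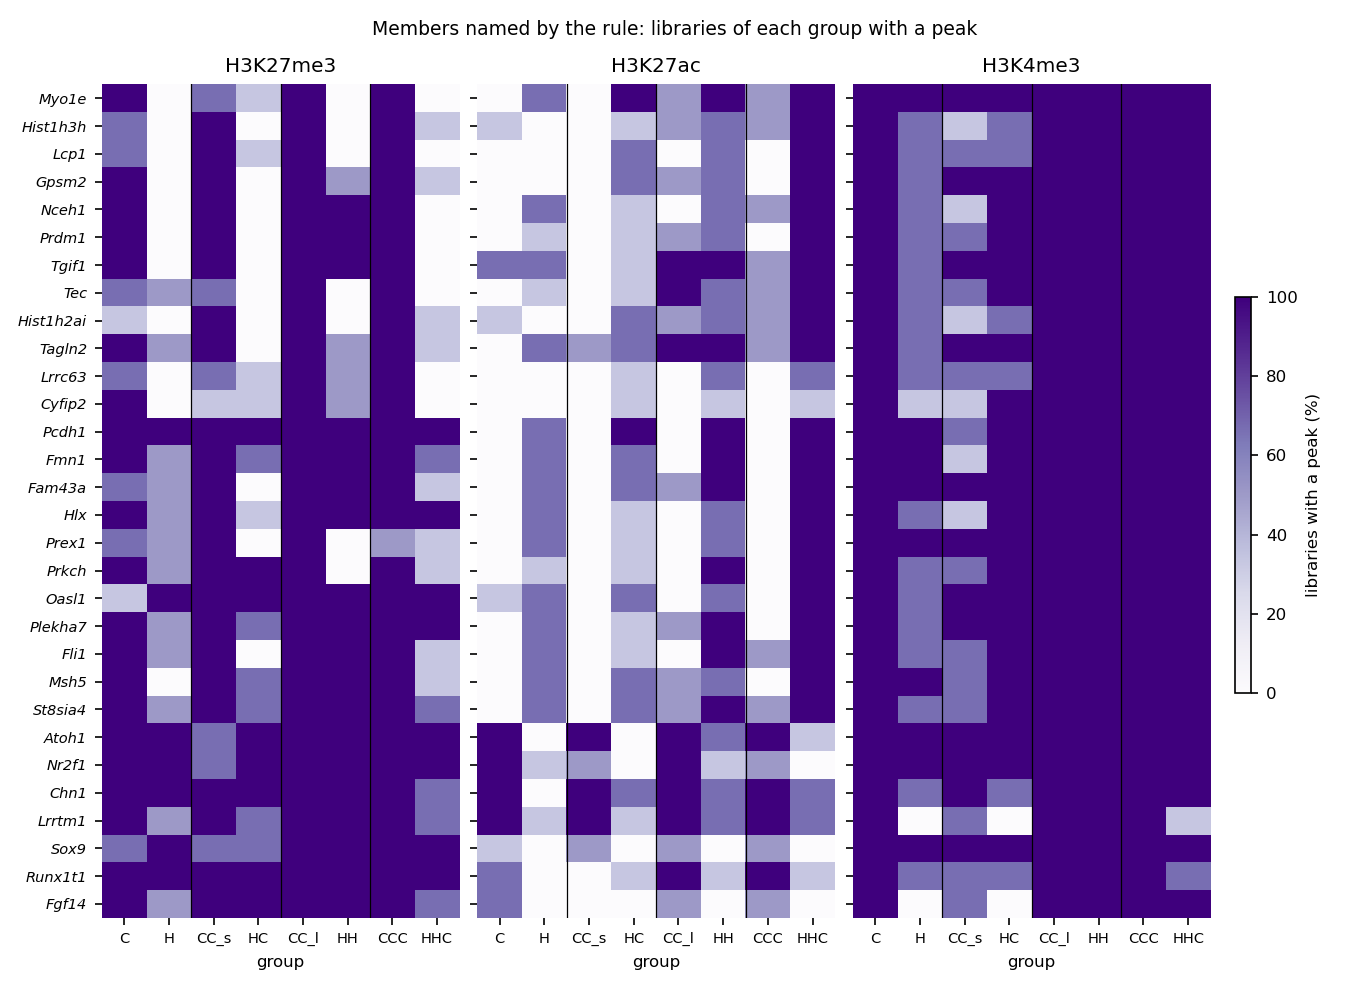
Percentage of the libraries of each group with a peak (colour, white 0% to dark 100%) for members (rows) named for the largest H3K27me3 drops or the largest higher and lower H3K27ac differences, by group (columns) and mark (panels). Myo1e has H3K27me3 in 3 of 3 C and 0 of 2 H libraries, Pcdh1 has H3K27ac in no control library, and Atoh1 has it in every control library.

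For H3K27me3 the rule used the control libraries, so drops at members are described without a test. Over all promoters, 9.98% of those tested were lower in diet at an unadjusted p under 0.05. No count of members is read against this share, because the rule fixed their control level. The largest drops were at Myo1e, the histone gene Hist1h3h and Lcp1, an actin-bundling protein of leukocytes (-81.7 points each), at Gpsm2, which orients the mitotic spindle, Nceh1, a cholesterol ester hydrolase, Prdm1, a repressor that drives plasma cell differentiation, and Tgif1, a homeobox repressor in TGF-beta signalling (-80 points each), and at Tec, a tyrosine kinase of blood cells, and Hist1h2ai (-73.3 points each). Tagln2 (-70 points), Lrrc63 and Cyfip2 (-63.3 points each) followed. Hist1h3h and Hist1h2ai share a window with each other, as do Lcp1 and Lrrc63, and histone genes are near-identical copies among which reads can be misplaced.

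Myo1e had H3K27me3 in 3 of 3 C, 2 of 3 CC_s, 2 of 2 CC_l and 2 of 2 CCC libraries, and in 1 of 3 HC libraries and no H, HH or HHC library. Its H3K27ac moved the other way, with 0 of 3 C, 0 of 2 CC_s, 1 of 2 CC_l and 1 of 2 CCC libraries, 2 of 3 H libraries and every HC, HH and HHC library, while H3K4me3 was present in 21 of 21. Acetylation was thus frequent in the diet libraries and trimethylation in the control libraries of 1 promoter. Prdm1 had H3K27me3 in 10 of 10 control libraries, in no H, HC or HHC library, and in 2 of 2 HH libraries. Gpsm2 was without the mark in H and HC and kept it in 1 of 2 HH and 1 of 3 HHC libraries.

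A promoter was counted as lost when every control library of a comparison and no diet library had the peak. For H3K27me3, 28 of 349 members (8.02%) were lost in H against C, beside 14.8% of all promoters that could be, 26 of 383 (6.79%) in HC against CC_s beside 7.18%, 10 of 430 (2.33%) in HH against CC_l beside 5.7%, and 12 of 412 (2.91%) in HHC against CCC beside 5.04%. For H3K4me3, 49 of 440 members (11.1%) were lost in H beside 3.07%, and none in HC, HH or HHC, beside 0.041%, 0.808% and 0.614%. The H3K4me3 losses in H include the low library H replicate 3. Nothing is read from these counts against the background, since the rule used the control libraries.

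For H3K27ac, which the rule did not use, 2 of 316 members without a peak in C gained it in H (Ccn1 and Fgf13, 0.633%, beside 0.26% of all such promoters), 3 of 326 in HC (B230118H07Rik, Myo1e and Pcdh1, 0.92%, beside 0.509%), 5 of 207 in HH (Fmn1, Fli1, Ostm1, Prkch and Pcdh1, 2.42%, beside 0.999%) and 39 of 224 in HHC (17.4%, beside 4.71%). At H3K4me3-only promoters the shares that gained it were 1.26%, 2.52%, 6.30% and 22.2% in the order H, HC, HH and HHC, each above that of members. At Polycomb-only promoters they were 0%, 0%, 0.0729% and 0.564%. The HHC count of members falls on the comparison in which CCC replicate 3 had 14917 H3K27ac peaks and the other CCC library 32907. H3K27ac was lost at 9 of 83 members in H (10.8%, beside 6.27%), 2 of 68 in HC (Pfdn4 and Atoh1, 2.94%, beside 1.79%), 5 of 153 in HH (among them Foxa3, Sympk, Ccnjl and Ccbe1, 3.27%, beside 0.892%) and 0 of 53 in HHC, beside 0.389%. Genes of these short lists that are outside the naming rule were named after their values were seen.

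After return to chow, members that had lost H3K27me3 in obesity were followed in the weight-loss group. Of the 28 lost in H, 5 had the mark in 0 of 3 HC libraries (Nceh1, Gpsm2, Osbpl10, Prdm1 and Tgif1), 11 in 1, 8 in 2 and 4 in 3 of 3 (Pde3a, Siae, Phactr2 and Tbc1d30). Of the 10 lost in HH, 3 had the mark in 0 of 3 HHC libraries (Tec, Myo1e and Lcp1), 7 in 1 and none in 2 or 3. Of the 49 that had lost H3K4me3 in H, 10 had it in 0 of 3 HC libraries, 18 in 1, 17 in 2 and 4 in 3. These counts describe where the mark stood and were not tested.

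Members that were lost against the age-matched controls both in obesity and after weight loss were Nceh1, Gpsm2, Prdm1 and Tgif1 for H3K27me3 in the 12-week cohort, of 45 promoters in all, and Tec, Myo1e and Lcp1 in the 25-week cohort, of 25. For H3K27ac, Pfdn4, a prefoldin subunit, and Atoh1 were lost in both H and HC, of 38 promoters, and Pcdh1, Fmn1 and Prkch gained it in both HH and HHC, of 26. For H3K4me1, Cbfa2t3, a transcriptional corepressor, and Msh5 gained the mark in both HH and HHC, of 102 promoters, and Brinp3 lost it, of 5.

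The largest H3K4me3 drop was at Brinp3, a neural gene, with H3K4me3 in 3 of 3 C, 1 of 3 CC_s, 2 of 2 CC_l and 2 of 2 CCC libraries and in no H or HC library, 1 of 2 HH and 1 of 3 HHC libraries (-63.3 points). It had no H3K27ac in any library and kept H3K27me3 in 19 of 20. Lrrtm1 differed by -61.7 points. Camp, the antimicrobial peptide cathelicidin, Pgbd5, Akain1, the matrix protease Adamts20 and Olig1, a factor of oligodendrocytes, differed by -45 points each, and Elavl4, an RNA-binding protein of neurons, by -43.3 points. Of the members, 230 could be tested and 9 were lower at an unadjusted p under 0.05, beside 3.87% of all promoters, from which nothing is read because the rule used this mark.

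H3K4me1, which marks enhancers and the flanks of promoters, was tested at 337 members. It was higher in diet at 24 (7.12%, beside 9.3% of all promoters tested) and lower at 12 (3.56%, beside 2.57%) at an unadjusted p under 0.05. The share that was higher lay below that of all promoters. The count of higher members was 15 without HC replicate 3 (4.49%, beside 7.69%) and 6 with an equal number of peaks per library (8.70%, beside 10.7%).

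In the 26 members whose H3K27me3 share was over 50 points lower in diet, H3K27ac was higher in 24 and lower in 0, with a median of 36.7 points. All members together had H3K27ac in a median of 1 of 9 control libraries. This left little room for a lower value, so nothing is read from the 0. In the 68 members with a drop of 25 to 50 points the median was 17.1 points, with 45 higher and 8 lower, and in the 171 with a smaller drop it was 8.33 points. The 178 members without a drop had a median of 0 points, with 87 higher and 42 lower. Across the 443 members Spearman's rho between the differences was -0.272, and over the 1426 Polycomb-only promoters it was -0.101. Of the latter, 1154 had no H3K27ac peak in any library, so most of their H3K27ac differences were 0. The values of the sets are therefore not compared. Between H3K27ac and H3K4me3 differences rho was 0.317 at members and 0.407 at Polycomb-only promoters, and between H3K27ac and H3K4me1 it was 0.398 and 0.373. The correlation with H3K27me3 was thus the weakest of those with H3K27ac. The points share animals, depth and neighbouring windows, and the H3K27me3 and H3K4me3 differences use control libraries of the rule, so the correlations are descriptions. Pcdh1, with no drop in H3K27me3 and the largest H3K27ac difference, lies outside the relation with H3K27me3.

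**Figure D5:**
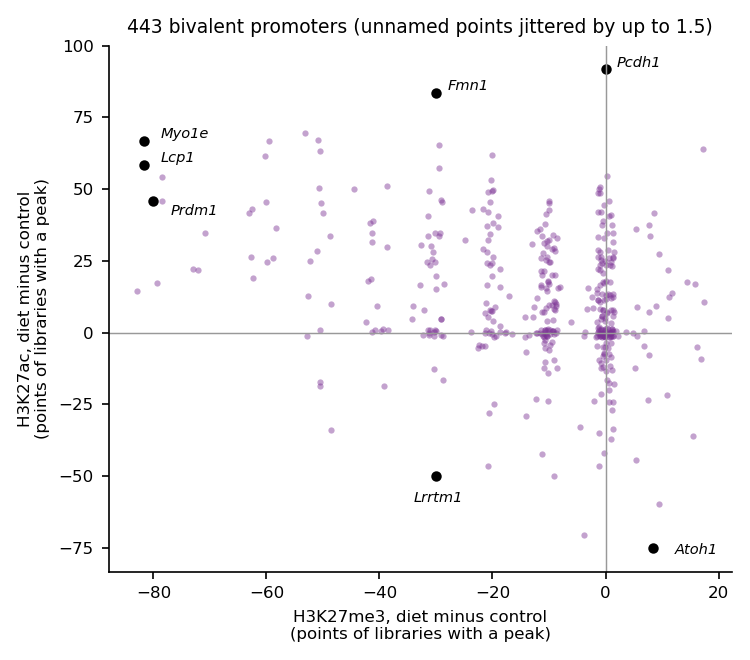
Difference in the share of libraries with an H3K27ac peak (vertical axis, points, diet minus control) by the same difference for H3K27me3 (horizontal axis, points) for the 443 members (dots), some of them named. Members at the left, with H3K27me3 drops of over 50 points, have H3K27ac differences with a median of 36.7 points, and none of the 26 has a negative one. The members have H3K27ac in a median of 1 of 9 control libraries, which leaves little room for negative differences.

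Markers of other cell types were counted in every library, and no single direction held for all of them. Of 14 adipocyte markers, 11 to 14 had H3K4me3 and 11 to 14 had H3K27ac in every library, with Plin1 and Pparg marked by H3K4me3 in 21 of 21. Of 14 macrophage markers, H3K4me3 was present at 0 to 7 in control libraries. In the diet libraries it was present at 12, 12 and 0 (H), 1, 2 and 8 (HC), 12 and 12 (HH) and 13, 13 and 12 (HHC). H3K27ac was present at 2 to 7 macrophage markers in control libraries, and at 10, 6 and 0 (H), 0, 0 and 9 (HC), 8, 9 and 6 (HH) and 13, 6 and 8 (HHC). The defining macrophage gene Adgre1 had H3K4me3 in 0 of 10 control and 8 of 11 diet libraries, and Ptprc in 1 of 10 and 9 of 11. Of 10 endothelial markers, H3K27ac was present at 0 to 4 in controls and at 5, 2 and 0 (H), 0, 0 and 8 (HC), 9, 4 and 3 (HH) and 4, 4 and 6 (HHC). H3K4me3 was present at 0 to 8 of them in controls and at 10, 9 and 0 (H), 3, 2 and 8 (HC), 10 and 10 (HH) and 6, 9 and 9 (HHC). Of 10 lymphocyte markers, H3K27ac was present at 0 or 1 in controls and at 2, 0 and 0 (H), 0, 0 and 2 (HC), 4, 2 and 0 (HH) and 10, 2 and 5 (HHC). H3K4me3 was present at 0 to 3 of them in controls and at 1, 2 and 0 (H), 2, 1 and 4 (HC), 7 and 6 (HH) and 10, 8 and 9 (HHC). Of 9 mesothelial markers, H3K4me3 was present at 0 to 5 in controls and at 0 to 5 in diet libraries, with 0 in every H library against 4, 4 and 2 in C. Of 10 progenitor markers it was present at 6, 7 and 0 in H against 7, 8 and 7 in C, and at 3, 2 and 6 in HC against 1, 1 and 5 in CC_s. HH had 9 and 8 against 7 and 6 in CC_l, and HHC had 5, 9 and 8 against 7 and 8 in CCC. Of 8 mural markers, H3K4me3 was present at 4, 2 and 2 in H against 4, 4 and 3 in C, and at 3, 2 and 6 in HC against 2, 0 and 2 in CC_s. HH had 6 and 7 against 4 and 7 in CC_l, and HHC had 6, 7 and 7 against 7 and 6 in CCC. H replicate 1 and HC replicate 3 had the most macrophage markers with H3K27ac in their groups and also the most H3K27ac at the bivalent promoters, whereas HHC replicate 1, with 13 macrophage markers, had the least of the HHC libraries. In HH, replicate 2 had the most macrophage markers and replicate 1 the most H3K27ac at the bivalent promoters. In each diet group, the library with the most H3K27ac there was also the one with the most H3K27ac peaks. These were H replicate 1 (26649 peaks), HC replicate 3 (37143), HH replicate 1 (38713) and HHC replicate 3 (41989). Lcp1, Tec, Prdm1, Fli1 and Prex1 are genes that blood cells are known to use, and Esam, an endothelial marker, and Pdgfra, a progenitor marker, are themselves members. The part of other cell types and of peak number in the H3K27me3 and H3K27ac differences was not tested.

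Differences between diet and control libraries were also set out by CpG content, with no test. The 320 members with an observed to expected CpG ratio of at least 0.6 and the 123 below it had mean differences of -13.5 and -13.6 points in H3K27me3, 11.9 and 11.2 points in H3K27ac and -5.95 and -6.05 points in H3K4me3. H3K27ac was present in 26.98% and 34.2% of control libraries on average in these sets.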

How the data were processed

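Per the deposited files and the study's methods, the authors trimmed reads (Trim Galore 0.6.6), aligned them to mm10 (Bowtie2 2.4.4, SAMtools 1.13), made coverage with bedtools 2.30 and called peaks per library with SEACR 1.3 in stringent mode at 0.01. Each deposited list gives a peak's position, total signal and highest signal. The signal is not scaled between libraries, read totals were not used here, and depth is therefore unknown, so presence of a peak was the measure. Peak number and covered length describe the libraries and do not measure depth. Among H3K27ac libraries, H replicate 3 had the fewest peaks (12174) and the highest mean coverage in peaks (24.3). TSS came from GENCODE vM21. Each promoter was tested with the exact stratified permutation test given in the report (two-sided, Benjamini-Hochberg, 0.05) where at least 3 libraries had and 3 lacked a peak. Python 3.11.15, NumPy 2.4.6, pandas 2.3.3, SciPy 1.17.1 and Matplotlib 3.10.9 were used, and the test was tested on simulated data. P-values measure the spread between libraries of a cohort, which pools ages and pools obese with weight-loss mice. The age-matched pairs were not kept in the permutation.

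Members and gene lists were chosen with earlier results of these data known. Named genes were the members with the largest drops in H3K27me3 (12) and H3K4me3 (8) and the largest higher (12) and lower (8) H3K27ac differences, the first 4 members of each list by name, members gained or lost in both comparisons of a cohort, and 3 on each side of the threshold. No member entered by adjusted p. Groups came from the sample titles. Alternatives were other windows, overlaps, peak cuts, thresholds, no cohort, a replicate block and leaving out libraries. Some members that the naming rule selects are not reported here.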

Additional observations from a re-analysis of the deposited data

How the results depend on the processing

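Alternatives left the H3K27me3 differences between each diet group and its controls below 0 throughout (31 alternatives for HH, for example, from -3.15 to -0.316 points), and 0 promoters passed the adjusted threshold without any 1 library. The number of members was 289 with a window of 500 bp, 139 with equal peak numbers and 117 with the upper peaks by total signal. It was 710, 217 and 107 at 7, 9 and 10 of 10 libraries, and 259 to 441 without 1 library. With equal peak numbers 55 promoters passed for H3K4me3 and 11 for H3K27me3, and 22 for H3K27me3 with the upper peaks. Cohort-alone runs and runs without 2 libraries were chosen after seeing the data.

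Members higher in H3K27ac are given with their share of members tested, beside that of all promoters tested. They numbered 31 (500 bp, 19.4% beside 5.41%), 7 (equal peaks, 11.1% beside 9.39%) and 8 (upper peaks, 12.1% beside 8.21%). Without the 2 H3K27ac libraries with fewest peaks they numbered 31 (12.5% beside 5.22%). The 12-week cohort gave 4 (4.65% beside 0.445%) and the 25-week cohort 18 (11.4% beside 6.87%). Without 1 library they ranged from 29 (11.5% beside 4.31%) to 65 (25.4% beside 9.03%). For H3K4me1 they numbered 15 (1000 bp, 5.49% beside 7.41%), 9 (500 bp, 4.02% beside 6.36%) and 12 (500 bp of overlap, 4.03% beside 7.79%). With equal peaks they numbered 6 (8.70% beside 10.7%) and with upper peaks 2 (3.23% beside 11.4%). The 12-week cohort gave 1 (1.47% beside 1.51%) and the 25-week cohort 11 (6.08% beside 8.80%). Without 1 library they ranged from 15 (4.49% beside 7.69%) to 30 (8.90% beside 11.7%).

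The H3K27me3 difference of H was -16.7 (1000 bp), -23.1 (500 bp), -20.4 (500 bp of overlap) and -13.5 points (without both low CC_s libraries). That of HC was -30.1 (500 bp) and -30.4 (500 bp of overlap), and that of HHC -16.2 (500 bp). That of HH was -2.27 (1000 bp), -3.15 (500 bp), -3.03 (equal peaks), -0.543, -1.40 and -1.40 (7, 9 and 10 of 10 libraries), -0.316 (same TSS), -1.47 (without both low CC_s libraries) and -1.74 to -0.396 without 1 library. For H3K4me3, HC was at -0.220 without both low CC_s libraries. HH was at -0.350 (500 bp), -7.07 (equal peaks), -0.769 (upper peaks), -0.222 (treatment field), 0.109 (7 of 10) and 1.04 (without both low CC_s libraries), so its sign was not stable. HHC was at -8.64 (equal peaks), -2.70 (7 of 10) and -3.21 (without both low CC_s libraries), and its H3K27ac difference at 2.49 to 50.7 without 1 library. The cause was not tested.

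Replicate numbers did not pair the diet groups with controls: deviations of same-number pairs correlated at -0.197 to 0.185. With the replicate block the members higher in H3K27ac were 8 (3.13% of those tested, beside 0.673% of all promoters tested). In H3K4me1 they were 6 (1.78% beside 1.70%), and the HH difference in H3K27me3 was -0.446 points.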
